A study of Mus musculus with 6 samples.

Results

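Myoblasts become muscle fibres by fusing with one another, and the growing fibre then rebuilds its surface membrane. The 10 genes described here were taken by name for their part in those steps: Mymk, Mymx, Tmem182, Cdh15, Cdh2, Cav3, Dysf, Myof, Dock1 and Ncam1. They are 10 of 18194 genes on the array and are read by 19 of its 45101 probe sets, each a set of short probes for 1 transcript. Every probe set that the platform annotation pairs with exactly 1 of these genes was used. All 10 passed the filter on low values, which asked for 1 array or more at or above 7.95 log2 units, the median of all values, and which 13242 genes passed.

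The cells were C2C12, a mouse myoblast line that differentiates when serum is lowered. Parental cells were measured in growth medium (GM) with 10% fetal bovine serum and at day 0, right after the switch to differentiation medium with 2% horse serum. They were also measured at days 2 and 4 in that medium. The GM and day 0 cultures may differ in cell density (confluence) as well as in medium, and their parts cannot be told apart. A pair of stable lines was measured at day 0: one carried a short hairpin RNA against the repressor Rp58 (shRp58, current symbol Zbtb18) and the other a control that the labels call a LacZ vector in one place and a control hairpin in another. Both had been transfected by lipofection and selected for 2 weeks in G418 at 500 μg/ml, and whether a line was a pool or 1 clone is not given in the sources used here. With 1 array in each of the 6 groups, no difference below has a replicate check, none was tested, and "2-fold" is a size and not a call of significance.

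Array medians were 8.26 to 8.27 for the time course but 7.15 for both stable lines, so values were compared only within the 4 time-course arrays and within the 2 stable-line arrays. Levels of different genes were not set against each other, because each probe set has its own brightness. The labelled cell type was checked against 8 myoblast and muscle markers (Myod1, Myf5, Des, Myog, Pax7, Acta1, Ckm and Cdh15), and all 8 lay above the array median on all 6 arrays. Of 26 markers of other cell types, 11 lay below it on every array (among them Pecam1, Cdh5, Ptprc, Cd68 and Adipoq) and 11 above it on every array (Pdgfra, Col1a1, Acta2, Kdr, Adgre1, Cd3e, Syn1, Mbp, Sox10, Epcam and Krt8), so lying above an array median does not by itself mark a cell type here. Of the 4 fibroblast markers, Lum and Col1a1 were higher at day 4 than in GM (9.82 against 7.61 and 11.84 against 9.64), Pdgfra was highest at day 2 (10.42, against 8.86 in GM and 9.46 at day 4), and Thy1 read 6.75 to 6.94 throughout. The smooth muscle gene Cnn1 was lower at day 4 than in GM (7.28 against 9.20) and the epithelial Cdh1 higher (7.58 against 5.42), both below the array median at day 4. With shRp58 Col1a1 read 8.86 against 9.78 with the control, Lum 6.71 against 6.52, Pdgfra 7.53 against 7.65 and Thy1 5.56 against 5.59. The part of these markers in the results below was not tested. Zbtb18, the target of the hairpin, stood at 11.69 log2 units with the control and 11.16 with shRp58, a difference of -0.53 that did not reach 2-fold.

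Fusion of myoblasts follows an order that is well described. Cells first recognise and bind one another through cadherins, immunoglobulin-type adhesion molecules and integrins. Actin remodelling through the exchange factor Dock1 and the small GTPase Rac1 then presses the membranes together. The myoblast-specific membrane protein myomaker (Mymk) brings about mixing of the outer membrane leaflets, and the small peptide myomerger (Mymx) completes the pore. Caveolin 3 (Cav3) and dysferlin (Dysf) belong to the mature fibre, where they shape caveolae and the T-tubule system and reseal membrane tears, and myoferlin (Myof) is the ferlin of the myoblast.

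Promoter windows are shown for 3 genes that represent different courses over the 4 time points: Tmem182, which was higher at every step, Cav3, which was higher late, and Cdh15, which was highest at day 0. Each window runs from 250 bases before to 50 bases after a transcription start, as RefSeq places it on GRCm38.p6, and all 3 are on the plus strand, at chr1:40805351-40805650, chr6:112459255-112459554 and chr8:122848124-122848423. Capitals mark the E-box CANNTG, the sequence bound by MyoD-family factors and their partners.
Tmem182: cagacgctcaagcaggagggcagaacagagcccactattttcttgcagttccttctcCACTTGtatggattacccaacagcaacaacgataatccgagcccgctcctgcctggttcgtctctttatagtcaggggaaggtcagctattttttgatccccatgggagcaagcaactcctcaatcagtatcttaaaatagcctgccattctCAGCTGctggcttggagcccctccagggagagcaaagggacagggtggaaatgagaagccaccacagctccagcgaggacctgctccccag
Cav3: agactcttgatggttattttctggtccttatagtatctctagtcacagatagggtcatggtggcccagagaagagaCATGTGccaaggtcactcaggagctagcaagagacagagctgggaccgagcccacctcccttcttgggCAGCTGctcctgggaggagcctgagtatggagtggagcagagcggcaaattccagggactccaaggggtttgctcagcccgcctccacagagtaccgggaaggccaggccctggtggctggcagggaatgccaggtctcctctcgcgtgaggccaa
Cdh15: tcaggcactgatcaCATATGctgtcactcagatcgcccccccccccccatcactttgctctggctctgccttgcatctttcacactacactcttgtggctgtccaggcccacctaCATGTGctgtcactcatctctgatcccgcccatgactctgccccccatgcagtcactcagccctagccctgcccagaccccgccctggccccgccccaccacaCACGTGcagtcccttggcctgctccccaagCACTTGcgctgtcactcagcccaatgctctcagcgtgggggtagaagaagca

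The E-box form CAGCTG, a common site of MyoD and myogenin, stands at base 210 of the Tmem182 window and at base 145 of the Cav3 window. Cdh15 has 4 E-boxes in its window and none of that form. Windows were matched for 6 of the 10 genes (Tmem182, Dysf, Cav3, Dock1, Cdh15 and Myof, 7 windows since Dysf has 2 starts). Neither Dysf window holds CAGCTG, although Dysf, too, was higher at every step. No window was matched for Mymk, Mymx, Cdh2 or Ncam1, so a link of CAGCTG with the courses was not tested. An E-box CANNTG was present in 5 of the 7 windows, against 72.3% of all 32851 windows in the table, and CAGCTG, which is one kind of CANNTG, in 2 of 7, against 16.3%. With both strands searched, CATCTG, the core of the site known for Rp58, was in 0 of 7 windows (17.2% of all), CATTCC, the core bound by TEAD factors, in 2 of 7 (14.7%), the MEF2 site in 0 of 7 (1.86%) and the CArG box in 0 of 7 (1.63%). A match is a description of these letters, and no match says only that the letters are not in the window.

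**Figure D1:**
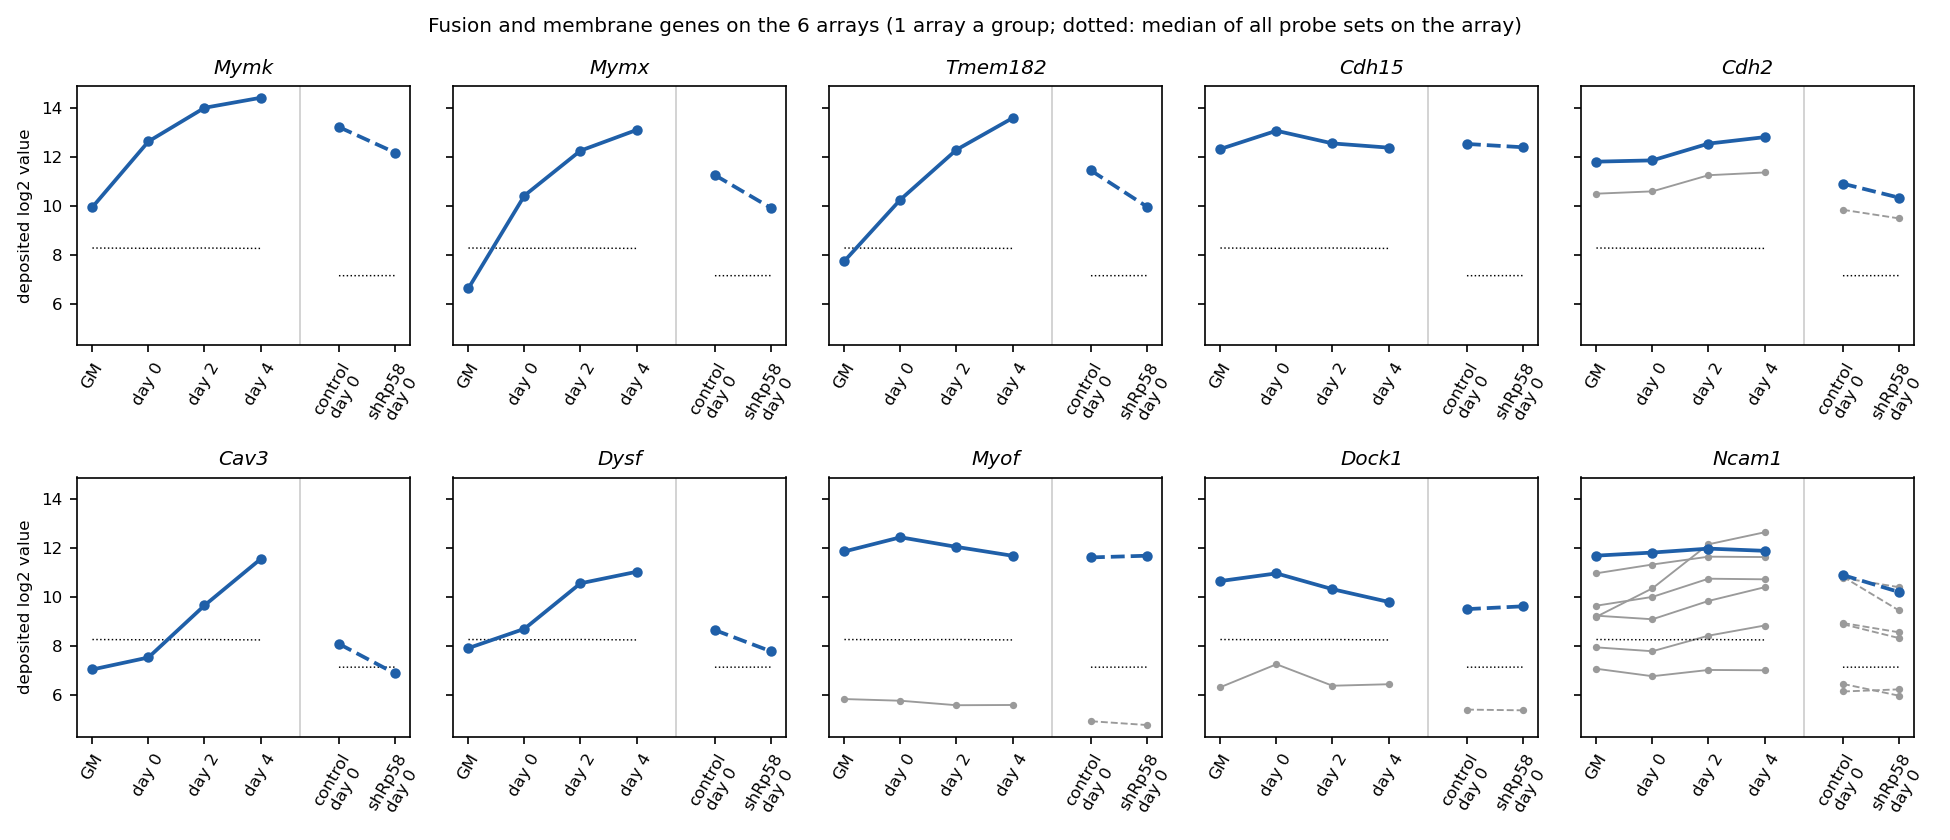
Deposited log2 values of the 10 genes on the 6 arrays, 1 array a group, with the probe set that stands for the gene (highest mean) in blue and its others in grey; solid lines join the time course, dashed lines the stable lines, and dotted lines mark the array medians. Mymk, Mymx, Tmem182, Cav3 and Dysf climb at every step of the time course and are lower with shRp58 than with the control.

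Transcripts of the fusion proteins proper were higher at day 0 than in GM. Mymk had values of 9.94 log2 units (GM), 12.62 (day 0), 13.99 (day 2) and 14.40 (day 4). The gene was 2.68 higher at day 0 than in GM (6.39-fold), a further 1.37 higher at day 2 and a further 0.41 higher at day 4. Of its whole GM-to-day-4 difference of 4.46 log2 units, 60.1% was present at day 0 and 90.8% at day 2, so the largest step of this gene lay before day 0. In a culture measured as a whole, a change in the number of cells that express a gene and a change in RNA per cell cannot be told apart.

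Mymx followed the same order of steps. It read 6.63 in GM, 10.41 at day 0, 12.24 at day 2 and 13.08 at day 4, differences of 3.78, 1.83 and 0.84 from one array to the next. The day 0 step was second from the top among the 13242 kept genes. In GM the probe set lay at percentile 19.3 of that array, below its median, so the 13.7-fold size of the step starts from a dim signal and is not exact. By day 0 58.6% of the 6.45 log2 units to day 4 was present.

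Tmem182, which encodes a muscle membrane protein of the claudin-like tetraspan type, spread its difference more evenly. It read 7.74 in GM, 10.25 at day 0, 12.28 at day 2 and 13.57 at day 4, with steps of 2.505, 2.03 and 1.29. It was the only one of the 10 genes at least 2-fold higher at each of the 3 steps. Only 43.0% of its GM-to-day-4 difference of 5.83 was present at day 0, and its GM value, too, lay below the array median.

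At day 0 the membrane genes of the fibre, Cav3 and Dysf, had smaller shares of their GM-to-day-4 difference than Mymk, Mymx and Tmem182. Cav3 read 7.05 in GM, 7.54 at day 0, 9.66 at day 2 and 11.55 at day 4. The GM and day 0 values both lay below the array median, at percentiles 25.9 and 36.1, and differed by 0.49, so the sizes of differences from either are not exact. Day 2 then stood 2.12 above day 0, and day 4 another 1.89 above day 2, the 21st highest of all kept genes at that last step. Only 10.9% of the GM-to-day-4 difference of Cav3 was present at day 0, against 60.1% for Mymk.

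Dysf, the calcium-binding ferlin of membrane repair, had most of its difference in the first step after the switch of medium. Its values were 7.92 in GM, 8.71 at day 0, 10.57 at day 2 and 11.03 at day 4, with steps of 0.79, 1.85 and 0.47. At day 0 25.3% of its GM-to-day-4 difference was present and at day 2 84.9%. The day 2 share was thus no smaller than that of Tmem182 (77.9%) and near that of Mymx (86.9%). Its close relative Myof went the other way after day 0. Myof read 11.86 in GM, 12.44 at day 0, 12.05 at day 2 and 11.69 at day 4, which put day 4 at -0.75 against day 0, less than 2-fold. A second Myof probe set was dim on all 6 arrays (4.79 to 5.85) and carried no course, and the bright one is of the array's s type, whose probes can match more than 1 transcript.

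The cadherins, which join cells through calcium-dependent contacts, separated after day 0. M-cadherin (Cdh15), typical of myoblasts and satellite cells, read 12.31 in GM, 13.05 at day 0, 12.54 at day 2 and 12.37 at day 4, so its highest value was at day 0 and its day 4 value was 0.06 above GM. N-cadherin (Cdh2) read 11.80 in GM, 11.85 at day 0, 12.53 at day 2 and 12.79 at day 4. Day 4 stood 0.95 above day 0 for Cdh2 and at -0.69 for Cdh15, both short of 2-fold. The other Cdh2 probe set had the same course, at 10.49, 10.58, 11.24 and 11.35.

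Dock1, the actin-side member, was lower late. It read 10.66 in GM, 10.97 at day 0, 10.33 at day 2 and 9.81 at day 4. Its day 4 value was -1.16 against day 0, which made it the only one of the 10 genes at least 2-fold lower in any step or span of the time course. A dimmer Dock1 probe set, below the array median throughout, gave -0.82 for the same span, and the mean of both gave -0.99, so the 2-fold line was crossed by 1 probe set alone.

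Ncam1, an immunoglobulin-type adhesion molecule made in several spliced and lipid-anchored forms, depended on which probe set was read. The brightest, 1426865_a_at, was nearly flat, at 11.69 in GM, 11.82 at day 0, 11.98 at day 2 and 11.89 at day 4. Another, 1450437_a_at, read 9.20, 10.36, 12.16 and 12.64 on the same arrays, 3.44 higher at day 4 than in GM.

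The remaining Ncam1 probe sets had smaller differences than 1450437_a_at. Day 4 minus GM was 0.66 for 1426864_a_at, 1.07 for 1439556_at, 1.16 for 1425126_at, 0.89 for 1450438_at and -0.06 for 1421966_at, and the last of these lay below the array median on all 4 arrays. So 3 of the 7 probe sets were at least 2-fold higher at day 4 than in GM and 4 were not. Which transcript forms each of them matches was not analysed here.

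**Figure D2:**
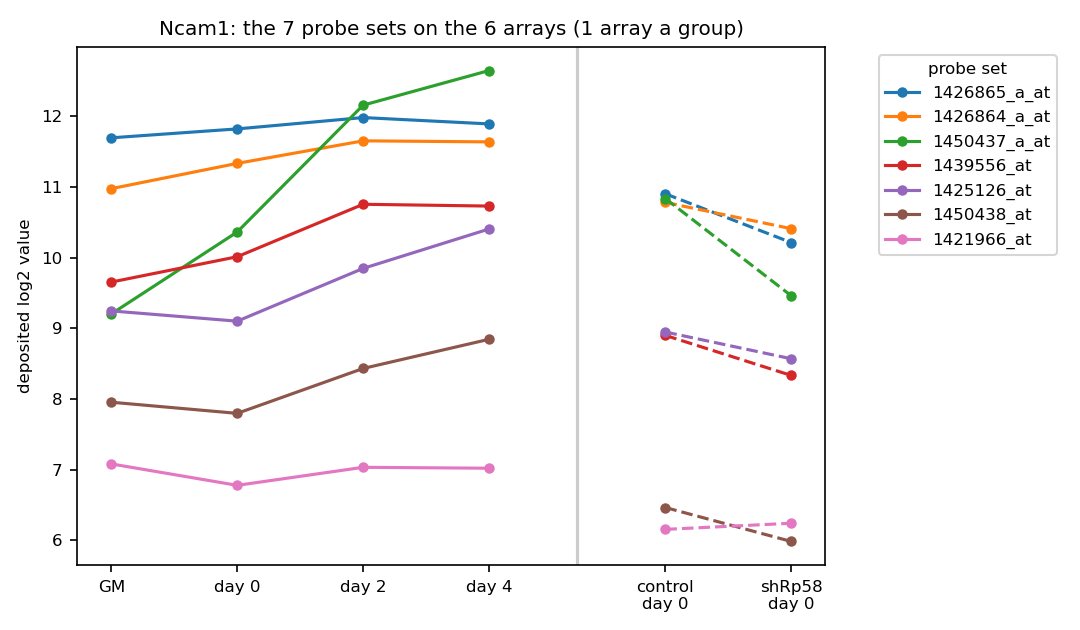
Deposited log2 values of the 7 Ncam1 probe sets on the 6 arrays, 1 array a group; solid lines are the time course and dashed lines the stable lines. Probe set 1450437_a_at climbs from 9.20 in GM to 12.64 at day 4 while 1426865_a_at stays between 11.69 and 11.98.

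Counted together with 1 probe set a gene, 3 of the 10 genes (Mymk, Mymx and Tmem182) were at least 2-fold higher at day 0 than in GM, where 2.91% of all kept genes were, and 0 were 2-fold lower (0.317% of all). The median of the 10 was 0.66, against 0.10 for all kept genes. All 10 lay above 0 at this step as deposited, where 61.2% of all kept genes did. After quantile normalization the small values of Cdh2 and Ncam1 turned to -0.16 and -0.08, and the median of all kept genes to -0.03. From day 0 to day 2, 5 genes (Cav3, Tmem182, Dysf, Mymx and Mymk) were at least 2-fold higher, against 2.67% of all kept genes, and 0 lower, against 2.96%. The median of the 10 was 1.03 and that of all kept genes -0.01.

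From day 2 to day 4 only Cav3 and Tmem182 were at least 2-fold higher, against 0.808% of kept genes, and 0 of the 10 were 2-fold lower, against the same share of 0.808%. Over the span from day 0 to day 4, which is the sum of those steps, 5 were higher (3.83% of all) and 1, Dock1, lower (5.66% of all). The genes had been taken for their known role in muscle, and these shares describe them beside the array as a whole.

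**Figure D3:**
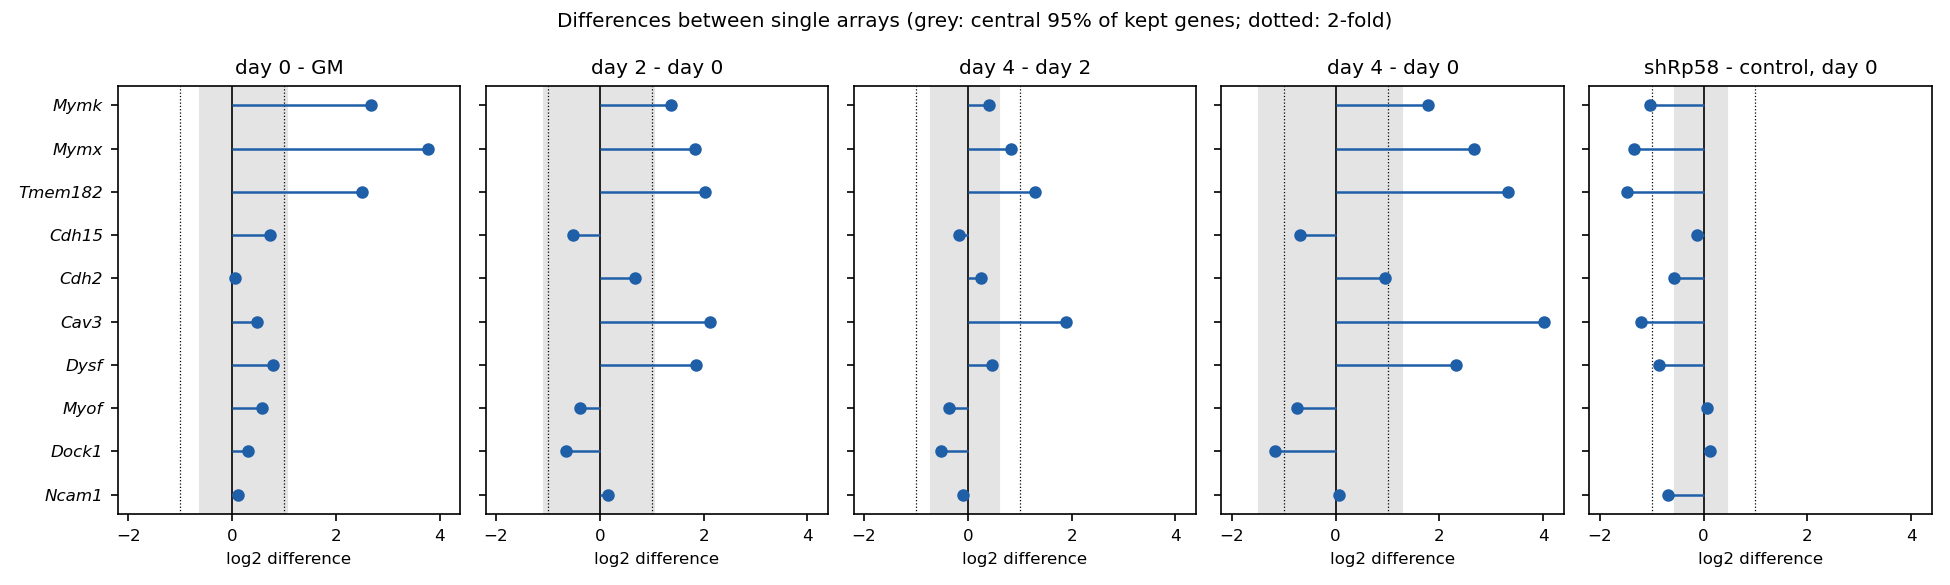
Log2 differences of the 10 genes in each comparison of single arrays; grey bands hold the central 95% of all 13242 kept genes and dotted lines mark 2-fold. Mymx, Mymk and Tmem182 lie above the band from GM to day 0, Cav3, Tmem182 and Mymx from day 2 to day 4, and 7 of the 10 genes lie below the band with shRp58.

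The genes whose profiles came nearest over the 6 arrays were named by a fixed measure, the root mean square distance of log2 values, with the time course and the stable lines each centred on their own mean. For Mymk these were Tnnc1, the slow and cardiac troponin C (distance 0.17), and the RNA-binding protein gene Rbm24 (0.18). For Mymx they were Mybph (0.19) and nebulin, Neb (0.19), and for Tmem182 the leiomodin Lmod3 (0.13) and the muscle creatine kinase Ckm (0.235). Cav3 was nearest to Cap2 (0.20) and Cox8b (0.20), and Dysf to the cadherin Cdh13 (0.08) and Vamp5 (0.10).

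Few genes were that close to the steep profiles. Within 0.25 log2 units lay 11 kept genes for Mymk, 5 for Mymx, 3 for Tmem182, 5 for Cav3 and 45 for Dysf. For the flat profiles the measure says little, since 5696 genes lay within it for Myof, 5108 for Ncam1, 4931 for Cdh15, 2033 for Dock1 and 1122 for Cdh2. Among the 10 genes themselves Cdh15 and Myof were the closest pair (0.10), both highest at day 0, and Mymx and Tmem182 were the closest of the steep ones (0.40).

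Other genes of these steps were read from wider lists. In adhesion and recognition, 21 of 25 listed genes were kept. At day 0 against GM 3 were at least 2-fold higher, beside 2.91% of all kept genes: Cdh11, a further cadherin (1.41), Itga4, the integrin partner of Vcam1 (1.30), and Cxcl12, a chemokine that guides myoblasts (1.27). From day 0 to day 2 Cdh11 (1.38), the fusion-associated protease Adam12 (1.28) and the Cxcl12 receptor Cxcr4 (1.08) were higher, and Itga4 (-1.14) and the junction molecule Jam2 (-1.12) lower, beside 2.67% of all kept genes higher and 2.96% lower. Itga4 was higher from day 2 to day 4 (1.09) by its brightest probe set, but its probe sets ran from -0.05 to 1.09 at that step and from -1.48 to -0.04 at the one before. Over the whole span from day 0 to day 4 Cdh11 (1.41) and Adam12 (1.02) were higher, Kirrel, a nephrin-type recognition molecule, was lowest at -0.80, and the median was 0.10. The size depended on the probe set for several at the day 0 step. For Cdh11 the other gave 0.49, for Cxcl12 others were as low as -0.19, and for Itga4 they ran from -0.24 to 1.76. The other Adam12 probe set fell short of 2-fold, at 0.97 at day 2 and 0.88 at day 4 against day 0. Jam2 probe sets ran from -1.43 to -0.65 at day 2 against day 0. At day 4 against day 0 a Jam2 probe set was as low as -1.11 and an Itgb1 probe set was 1.51 higher.

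Of 30 listed genes of the actin signalling machinery 27 were kept, and 0 were at least 2-fold apart at day 0 against GM, day 2 against day 0, day 4 against day 2 or shRp58 against the control. With so few genes these counts are near the shares over all kept genes. Their medians were 0.33, -0.15, 0.01 and -0.05 in that order, beside 0.10, -0.01, -0.03 and -0.01 for all kept genes. From day 0 to day 4 the WASP-interacting protein gene Wipf1 was the only one past 2-fold (-1.16), beside 5.66% of all kept genes lower. The exchange factor Trio was highest at 0.78. Other probe sets passed 2-fold where these did not: 1 of Cdc42 was 1.36 higher over that span, and 1 of Dnm2 was 1.28 higher from day 2 to day 4. Rac1, the GTPase that Dock1 activates, read 13.25, 13.79, 13.58 and 13.68 from GM to day 4, and Dock5, the nearest relative of Dock1 in the list, stood at -0.82 at day 4 against day 0.

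Caveolae are flask-shaped pits built from caveolins and cavins, and these families divided. Cav1, the caveolin of most cell types, read 12.27 at day 0 (0.26 above GM), 10.53 at day 2 and 11.68 at day 4, so it was -1.73 at day 2 against day 0 and partly back at day 4. Its partner Cav2 stood at -1.49 at day 2 and -1.50 at day 4 against day 0, although a dimmer Cav2 probe set gave 0.03 and -0.05. Cavin4, the muscle cavin, was higher at each step, by 1.42, 1.595 and 1.03, beside Cav3. Cavin3 stood at -1.54 at day 4 against day 0, while Cavin1 and Cavin2 differed by -0.42 and 0.23. Over these arrays the muscle forms Cav3 and Cavin4 were thus higher late, and Cav2 and Cavin3 lower.

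**Figure D4:**
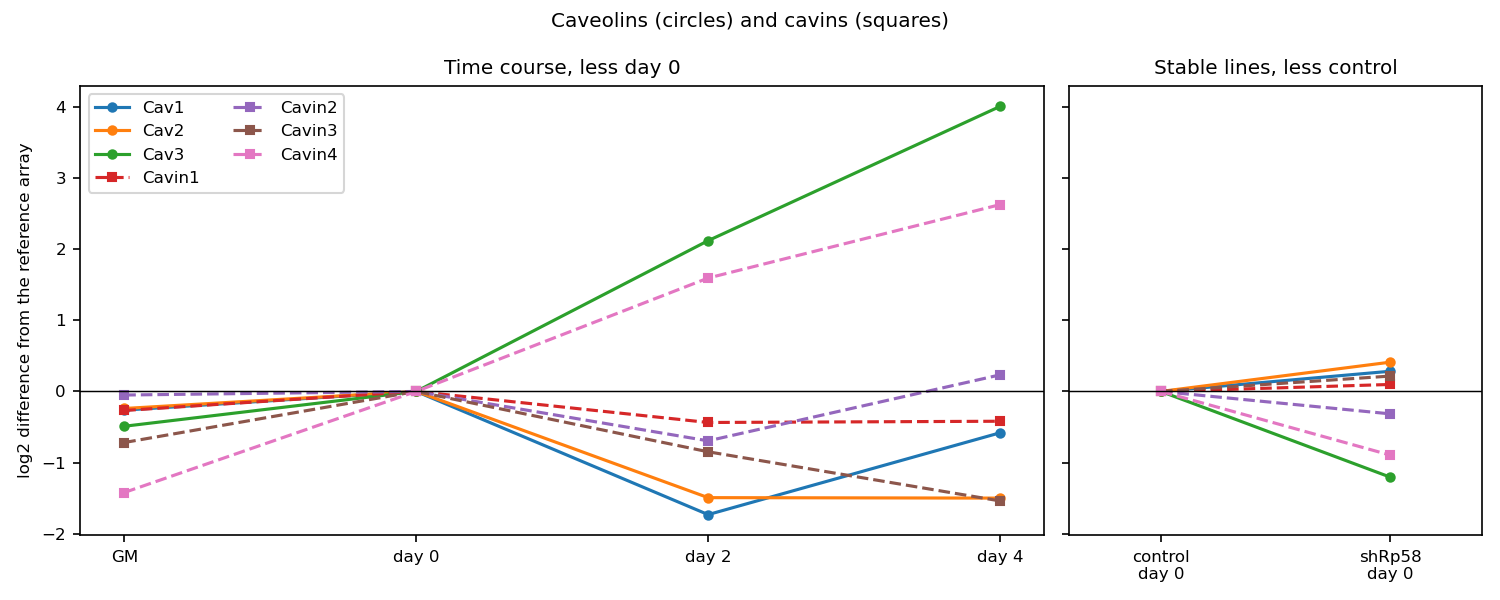
Log2 differences of 3 caveolins and 4 cavins from day 0 (left, time course) and from the control line (right), 1 array a group. Cav3 and Cavin4 reach 4.01 and 2.63 above day 0 at day 4 and are lower with shRp58 than with the control; Cav1 is lowest at day 2.

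The rest of the T-tubule and repair list was mixed. Of 42 listed genes 37 were kept, and at day 4 against day 0 4 were at least 2-fold higher, beside 3.83% of all kept genes: Cavin4, the cation channel gene Tmem38a (2.09), the muscle calpain Capn3 (1.38) and Bin1 (1.01), which bends membrane into T-tubules. Cav2 and Cavin3 were lower, a share of the list near the 5.66% of all kept genes, and the median was -0.18. At day 2 against day 0 S100a10, the partner of annexin A2, was also lower (-1.02). The annexins, which gather at membrane wounds, were short of 2-fold by the probe set that stands for each gene, with Anxa4 at -0.83, Anxa5 at -0.81, Anxa2 at -0.73, Anxa6 at -0.72 and Anxa1 at -0.47 at day 4 against day 0, the same side as Myof. Only Anxa7 among those listed was higher, by 0.15. For Bin1 other probe sets gave as little as -0.01, for Capn3 another gave 0.73, and for Anxa6 another gave -1.36, past 2-fold.

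The shRp58 line had lower values of the fusion and fibre-membrane genes. Mymk read 13.20 with the control and 12.16 with shRp58, a difference of -1.04. Mymx read 11.24 and 9.91, a difference of -1.34. Tmem182 read 11.43 and 9.96, at -1.48 the 26th lowest of all kept genes, and Cav3 read 8.10 and 6.89, at -1.21. These 4 were the ones at least 2-fold lower, where 0.619% of all kept genes were, and 0 of the 10 were 2-fold higher, where 0.0529% were. Mymk sat on the line: after quantile normalization of the 2 arrays its difference fell just short of 2-fold. Cav3 lay below the array median with shRp58, so its size is not exact.

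The other members were less far apart. Dysf read 8.66 with the control and 7.79 with shRp58 (-0.87), Ncam1 10.90 and 10.21 (-0.69) and Cdh2 10.90 and 10.33 (-0.57). All 3 still lay below the central 95% of kept genes, which ran from -0.55 to 0.46. Cdh2 did so narrowly. By the mean of their probe sets Cdh2 was at -0.46 and Ncam1 at -0.54, short of -0.55. That range was taken with 1 probe set a gene, and no range was computed for means of probe sets. Cdh15 read 12.52 and 12.38 (-0.13), Myof 11.62 and 11.69 (0.07) and Dock1 9.51 and 9.63 (0.11), well inside that range. The Ncam1 probe set that climbed in the time course, 1450437_a_at, read 10.83 and 9.46, a difference of -1.38, and 6 of the 7 Ncam1 probe sets were lower with shRp58. The median of the 10 genes was -0.78 and that of all kept genes -0.01.

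The hairpin difference is set beside the first differentiation step, with which it shares no array. All 7 of the 10 genes that stood higher at day 2 than at day 0 were lower with shRp58, with a median of -1.04. Over all kept genes higher at day 2, 64.6% were lower with shRp58, and among the 354 that were at least 2-fold higher 95.8% were, so the genes described here share this side with most genes of that size. Of the 3 genes lower at day 2, Cdh15 was on the lower side with shRp58 and Myof and Dock1 on the higher.

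**Figure D5:**
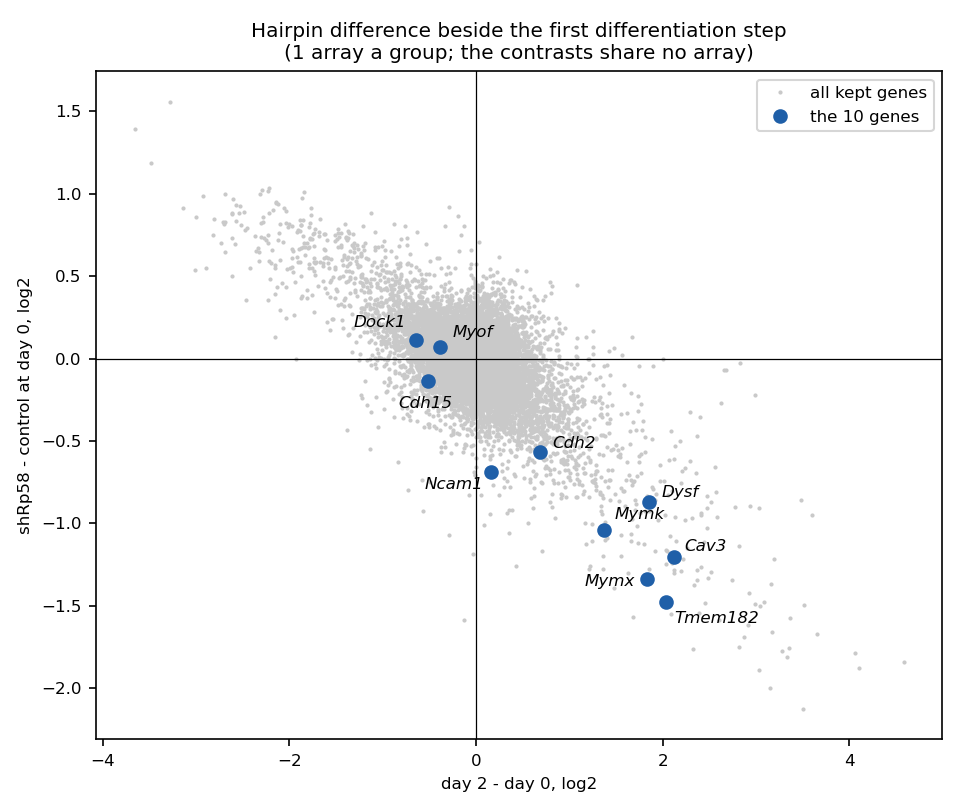
Log2 difference of shRp58 against the control at day 0 (vertical) and of day 2 against day 0 in parental cells (horizontal), for the 10 genes (blue) and all 13242 kept genes (grey). Tmem182, Mymx, Cav3, Mymk and Dysf lie at the lower right, and Cdh15, Myof and Dock1 lie left of 0 on the horizontal axis at -0.52, -0.39 and -0.64.

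In the wider lists Cxcl12 was the only adhesion gene past 2-fold with shRp58 (-1.19, with another probe set at -0.18). Cdh11 missed it at -0.99, with its other probe set at -0.23. In the caveolae, T-tubule and repair list 0 of 37 genes were 2-fold apart by the probe set that stands for each gene. That is near the shares of 0.619% lower and 0.0529% higher over all kept genes. Cavin4 stood at -0.90, Tmem38a at -0.82, Capn3 at -0.54 and Bin1 at -0.51, while Cav2 was 0.41, Cav1 0.28 and Cavin3 0.22 higher. Other probe sets gave -1.03 for Tmem38a, past 2-fold, but 0.02 for Capn3, -0.10 for Bin1 and -0.08 for Cav2. Cavin4, Cav1 and Cavin3 have 1 probe set each.

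Of 13 listed regulators of these genes 11 were kept. Myog, which activates Mymk and Mymx, was 2.28 higher at day 0 than in GM, 0.99 higher at day 2 and 0.15 higher at day 4 from step to step, the same order of steps as Mymk. Mef2c, a partner of the MyoD family, was higher by 1.59, 2.04 and 1.63, but its probe sets ran from 0.21 to 1.59 at the first of these steps. Follistatin (Fst), which promotes fusion by blocking myostatin, was 4.06 higher at day 2 than at day 0. Myf5 was lower at day 4 than at day 0 (-1.29), and Myf6 (1.24) and Zbtb18 (1.18) higher, beside 5.66% of all kept genes lower and 3.83% higher. With shRp58 Fst (-1.79) and Mef2c (-1.16, with another probe set at -0.73) were at least 2-fold lower, beside 0.619% of all kept genes. Myog was at -0.72 and Myod1 at -0.13.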

How the data were processed

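RNA from 6 C2C12 cultures was read on Affymetrix mouse arrays, 10 μg of cRNA each, per the labels' protocols and the series' design text. Values as deposited are log2 signals that the authors obtained by RMA, per the design text. Which software and version, and whether the 6 arrays were normalized together, is not given in the sources used here. RMA fits a model over the probes of a set and forces arrays normalized together to 1 distribution, so differences are relative to the other probe sets. The number of arrays limits the precision.

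Groups came from the sample titles. Probe sets were named through the platform annotation (34958 with 1 gene, 932 with several, 9211 with none or not listed), and Entrez IDs of 34754 matched RefSeq's GRCm38.p6 table. Each gene was represented by its probe set of highest mean. Differences are of log2 values between 2 arrays, called at 2-fold. The code was tested on simulated data (Python 3.11.15, pandas 2.3.3, numpy 2.4.6). All 10 genes are named; from a wider list, up to 4 genes called in a direction and comparison and the ends of day 4 against day 0, with others named for their family after their values were seen. The 10 genes, the lists and the rules were chosen with earlier results of these data known. Planned protein comparisons were not run, since no protein table was used here. Alternatives were the filter, the scaling, the probe set and the fold.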

Additional observations from a re-analysis of the deposited data

How the results depend on the processing

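Of 100 alternative values for the counts and medians of the 10 genes 93 stayed within 1.5 times the count, or within 1 robust standard deviation of all kept genes for a median. Those that did not came from 3 choices. At 1.5-fold 5 genes were higher at day 0 than in GM, 1 was lower at day 2 than at day 0 and 3 were lower at day 4 than at day 0, as a looser fold must give at least as many. With the mean of a gene's probe sets 0 were lower at day 4 than at day 0. With the probe set of widest range the medians were 1.58 at day 2 and 2.03 at day 4 against day 0, and -0.95 with shRp58, which is the change of the Ncam1 probe set. Of 200 alternative values for single genes 189 kept their size and side of 2-fold, and none that was past 2-fold changed sign. Mymk, Mymx, Tmem182, Cdh15, Cav3 and Dysf have 1 probe set each, so the choice of probe set could not change their values. Median centring left all 50 of its single-gene values the same, and array medians within each set were nearly equal beforehand. The counts of 93 and 189 thus include values that could not, or could hardly, change. Small values changed sign for Cdh2 and Ncam1 at day 0 (quantile), for Ncam1 from day 2 to day 4 (0.19 and 0.49 with the other probe set choices) and for Myof with shRp58 (-0.04 with the mean). No filter and a filter within each set left all 10 genes in, so these settings could not change a count or median of the 10. No replicate could be left out. Signals below an array's median limit the sizes for Mymx, Tmem182, Cav3 and Dysf in GM, Cav3 at day 0 and Cav3 with shRp58.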

Other observations

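The stable lines were also set beside parental day 0 cells by rank, since the deposited scales differ. Within its own array the Mymx probe set lay at percentile 79.7 in parental day 0 cells, 94.4 in the control line and 85.4 in the shRp58 line. Tmem182 lay at percentiles 77.8, 95.1 and 85.8, Cav3 at 36.1, 64.4 and 45.3, Dysf at 57.4, 71.4 and 60.4, and Mymk at 96.4, 99.3 and 97.7 in the same order. For these 5 genes the shRp58 line thus ranked below the control line but above the parental cells of the same day. In all, 9 of the 10 genes ranked higher in the control line than in parental cells, where 50.5% of kept genes did, and 7 of the 10 in the shRp58 line, where 53.2% did. For some the change was slight. From parental day 0 cells to the control line Cdh15 went from 97.8 to 98.3 and Cdh2 from 92.38 to 92.45. Myof went from 95.7 to 95.9 and Ncam1 from 92.2 to 92.5, while Dock1 ranked lower (85.5 to 81.1). The ranks cross the differently scaled sets of arrays, transfection and selection differ along with the set, and their part in these ranks cannot be told apart.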
